A study of Trichoderma reesei with 12 samples.

Results

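The effect of deleting rgs4 on the transcriptome of Trichoderma reesei was compared between constant light (LL) and constant darkness (DD) as a difference of differences. For each gene, the difference Δrgs4 minus wild-type in DD was subtracted from the difference Δrgs4 minus wild-type in LL on the log2 scale, and the result is called the interaction below. A negative interaction means that the mutant stood lower relative to the wild-type in LL than in DD, and the same value is the light response of Δrgs4 minus that of the wild-type. All 12 of the 12 libraries entered, 3 each from Δrgs4 in LL, wild-type in LL, Δrgs4 in DD and wild-type in DD, and 8895 of 10879 genes had enough reads for a test. The wild-type was QM6a, and Δrgs4 was QM6a in which rgs4 had been replaced by the hygromycin resistance marker hph. Both strains were grown for 96 h in shake flasks on cellulose minimal medium, and mycelium was harvested. The mutant is a single transformant, and the authors' copy number assay pointed to more than a single copy of the deletion cassette, so that in these libraries the loss of rgs4 cannot be told apart from other changes in this strain. As a control the authors crossed Δrgs4 and found its growth defect on glucose in progeny that carried the deletion, but no progeny are among these libraries. Values are normalized counts, that is reads on a gene over its library's size factor, and the libraries held 11.25 to 15.84 M (mega) reads on genes.

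Regulators of G-protein signaling speed up the hydrolysis of GTP by G-alpha subunits and thereby end a signal that started at a receptor. Fungi read light through photoreceptors such as the BLR1 and BLR2 transcription factors and ENV1, and in T. reesei light changes the transcription of genes for plant cell wall degradation, transport and secondary metabolism. An interaction of deletion and light is thus the measure of whether the mutant responds to light in the same way as the wild-type. The deleted gene (TrG0496W) had 0 to 4 reads in the Δrgs4 LL libraries against 1470 to 2040 in wild-type LL, and 0 to 5 reads in Δrgs4 DD against 1588 to 1710 in wild-type DD. Reads of rgs4 were thus at or near 0 in the mutant in both light conditions, as the labels state.

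Few genes passed the test, and most of them had a mutant level that was low in light. A gene was called when the interaction was beyond 0.58 on the log2 scale in either direction at an adjusted p under 0.05 (limma, Benjamini-Hochberg adjustment over all 8895 genes, here limma adjusted p). By this rule 45 genes had a negative interaction (0.506% of the tested genes) and 18 a positive one (0.202%), 63 in all (0.708%). Before adjustment, 804 negative and 757 positive interactions had a p under 0.05. The median limma adjusted p of the called genes was 0.0378, close to the threshold, and the lowest was 0.00247. Negative values made up 71.4% of the calls, 88.5% with upper-quartile size factors and 51.2% on the values as deposited. Over all tested genes the interaction had a median of 0.002, and 90% of the genes lay between -0.67 and 0.61.

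Genes with a negative interaction mostly carried their difference in light. Of the 45 genes, 28 were called lower in Δrgs4 in LL (1.69% of all genes were called lower there) and 0 were called in DD, and in 39 the difference in LL was larger than that in DD. Of the 18 genes with a positive interaction, 6 were called higher in Δrgs4 in LL (0.427% of all genes) and 4 were called lower in DD (0.0899% of all genes). For the other 25 of the 63 genes neither difference passed on its own. The interaction was computed from these same differences, so that these counts only describe it.

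**Figure D1:**
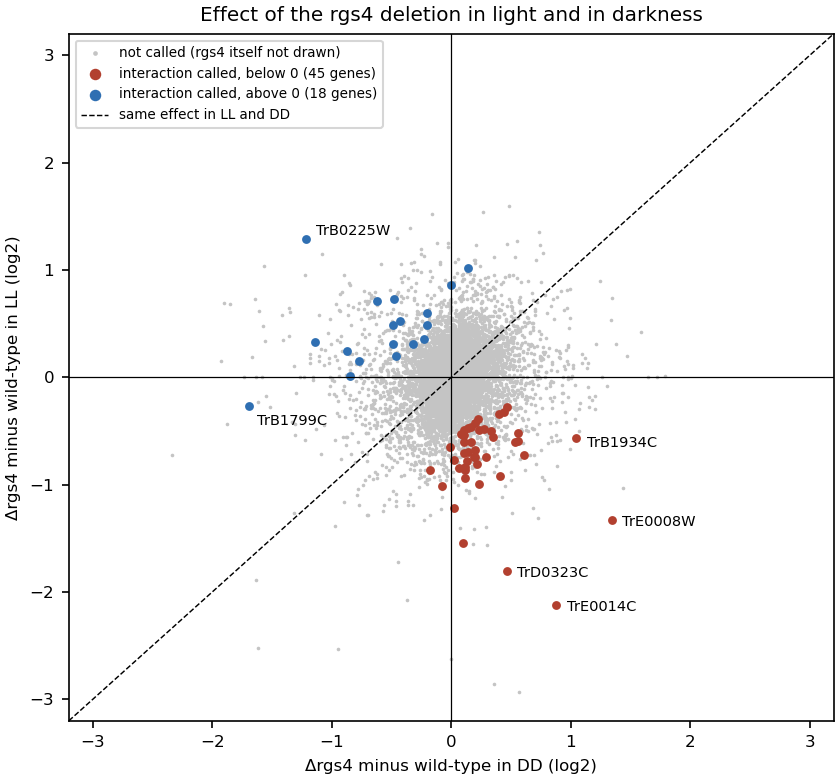
Each point is 1 gene, with the log2 difference Δrgs4 minus wild-type in DD on the horizontal axis and in LL on the vertical axis, and the dashed line marks equal differences. The 45 called genes with a negative interaction lie below the line and mostly in the quadrant of lower levels in LL and higher levels in DD, and the 18 with a positive interaction lie above it.

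The number of calls changed strongly when a library was left out, and 6 genes were called whichever of the 12 libraries was omitted. With 1 library fewer, between 7 and 104 genes were called with a negative and between 0 and 89 with a positive interaction. The high end came without Δrgs4 DD replicate 3, which lay furthest from the other libraries of its group. Its absolute log2 distance from the mean of those libraries had a median over genes of 0.207. For the other 11 libraries this median was 0.10 to 0.155. Without Δrgs4 DD replicate 3, 104 genes (1.17%) had a negative and 89 (1%) a positive interaction, and 61 of the 63 genes were among them. Any other omission left 7 to 38 genes. The results below are therefore given with the number of omissions, out of 12, in which a gene was still called. An omission also makes a group smaller and the test weaker. A lost call thus need not mean that the fitted value of the gene moved.

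**Figure D2:**
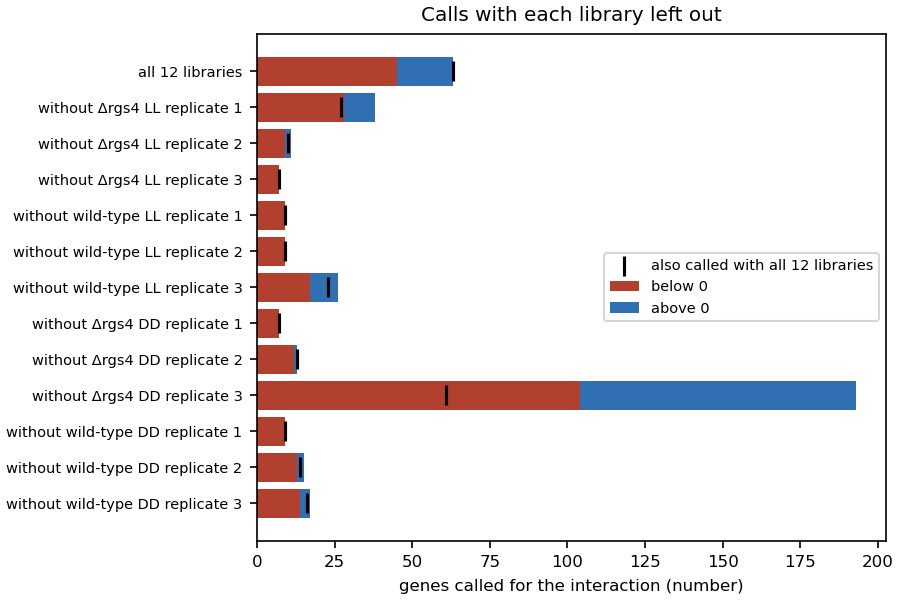
Bars show the number of genes called for the interaction with all 12 libraries and with each library left out, split into negative (below 0) and positive (above 0) values, and the black mark shows how many of them were also among the 63 genes. The bar without Δrgs4 DD replicate 3 reaches 193 genes, and the other omissions reach 7 to 38.

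The 6 genes called in 12 of 12 omissions all had a negative interaction. They are genes for the ribosomal proteins S28, P1 and S21, a putative cytochrome P450 monooxygenase and 2 genes without an annotation in the sources used here. S28 and S21 are small subunit proteins, and P1 is an acidic protein of the stalk of the large subunit, which recruits translation factors. In bulk mycelium a change in the share of hyphae that express a gene and a change in RNA per hypha cannot be told apart.

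The gene for ribosomal protein S28 (TrC1311W) had 2933, 2553 and 2811 normalized counts in Δrgs4 LL, against 5228, 5635 and 5633 in wild-type LL. In DD the counts were 4204, 3882 and 4115 in Δrgs4, against 3568, 3843 and 3026 in the wild-type. In LL every mutant library was below every wild-type library, and in DD above. Its interaction was -1.22 ± 0.12 (SE, limma adjusted p = 0.00339) and lay between -1.30 and -1.13 over the 12 omissions. The difference in LL was called (-0.99, limma adjusted p = 0.000561), while that in DD was 0.23 (limma adjusted p = 0.312). The light response of the gene was -0.56 in Δrgs4, just inside the threshold, and 0.67 in the wild-type, where it was called.

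The gene for the acidic protein P1 (TrB1847W) had the lowest limma adjusted p of all genes. It had 6052, 6124 and 6471 normalized counts in Δrgs4 LL, against 11733, 13484 and 12549 in wild-type LL. In DD the values were 7851, 7641 and 7746 in Δrgs4, against 8239, 8131 and 8169.7 in the wild-type. The strains did not overlap in LL, and in DD the mutant libraries were below the wild-type libraries by a small margin. The interaction was -0.94 ± 0.09 (SE, limma adjusted p = 0.00247), with log2 differences of -1.02 in LL and -0.08 in DD.

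The S21 gene (TrB0594C) had 1955, 1866 and 1908 normalized counts in Δrgs4 LL, against 3234, 3139.9 and 3189.8 in wild-type LL. The DD values were 2581, 2382 and 2541 in Δrgs4, against 2199, 2469 and 1947 in the wild-type, and here the strains overlapped. The interaction was -0.93 ± 0.11 (SE, limma adjusted p = 0.00973).

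The cytochrome P450 gene TrD0325W changed its place with the light condition. Cytochrome P450 monooxygenases insert oxygen into small molecules, in fungi often in the synthesis of secondary metabolites or in detoxification. TrD0325W had 177, 152 and 189.8 normalized counts in Δrgs4 LL, against 304, 251 and 304 in wild-type LL. For DD the libraries gave 485, 502 and 433 in Δrgs4, against 296, 348 and 286 in the wild-type. The strains did not overlap in either light condition, with the mutant lower in LL and higher in DD. The interaction was -1.33 ± 0.17 (SE, limma adjusted p = 0.0126), made up of a called difference of -0.72 in LL and one of 0.61 in DD that did not pass (limma adjusted p = 0.0839). Light lowered this gene in Δrgs4 (-1.45, limma adjusted p = 1.77e-06), whereas the light response of the wild-type was -0.11 (limma adjusted p = 0.448).

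The 2 genes without an annotation also had the mutant lower in LL and higher in DD. TrB1137C had 453, 379.6 and 479 normalized counts in Δrgs4 LL, against 653, 699 and 631 in wild-type LL, and 1003, 882 and 793 in Δrgs4 DD, against 591, 631 and 624 in wild-type DD. Its interaction was -1.13 ± 0.15 (SE, limma adjusted p = 0.0126). TrC0164W had 1465, 1630.3 and 1343 in Δrgs4 LL, against 2035, 2321 and 2160.1 in wild-type LL, and 1969, 1982 and 1845 in Δrgs4 DD, against 1449, 1636 and 1467 in wild-type DD, with an interaction of -0.91 ± 0.12 (SE, limma adjusted p = 0.0126). In both genes the mutant was below all wild-type libraries in LL and above all of them in DD.

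**Figure D3:**
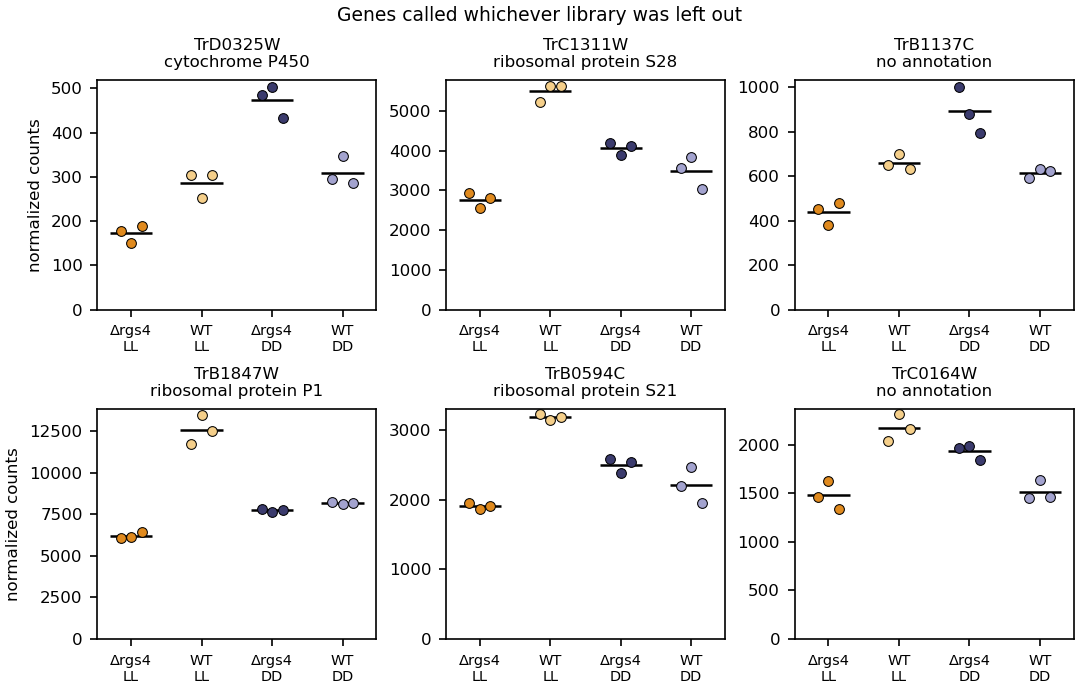
Normalized counts (vertical axes, starting at 0) of the 6 genes that were called whichever library was left out, with 1 point per library and a line at the mean of the 3 libraries, for Δrgs4 and wild-type (WT) in LL and in DD. In all panels the Δrgs4 LL libraries lie below the wild-type LL libraries, for S28 for example at 2553 to 2933 against 5228 to 5635.

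The remaining ribosomal protein genes of the list moved the same way. The list holds the 6 genes that the authors annotated as ribosomal proteins among those they had found regulated in these libraries, so that its direction is not independent evidence. All 6 were called with a negative interaction, against 0.506% of all genes, and their median interaction was -0.93, against 0.002 over all genes. The median light response of the 6 genes was -0.31 in Δrgs4 and 0.64 in the wild-type. The gene for the second acidic protein, rla2 (TrD0208W), had 4409, 4356 and 4932 normalized counts in Δrgs4 LL, against 7293, 9359 and 8356 in wild-type LL. The DD libraries had 5366, 4872 and 4889 in Δrgs4, against 4982, 5019 and 3997 in the wild-type, and the strains overlapped. Its interaction was -0.98 ± 0.15 (limma adjusted p = 0.0275), and it was called in 5 of 12 omissions. The S10 gene (TrB0953C) had an interaction of -0.76 ± 0.10 and was called in 11 of 12 omissions, and that for L11 (TrC1283C) had -0.63 ± 0.12 and was called in 1. Without Δrgs4 DD replicate 3 all 6 genes were called, with a median of -0.93.

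Of 8 listed genes of RNA processing, translation, folding and protein import, 6 had negative values. Of these, 1 passed, against 0.506% of all genes called with a negative interaction. The gene of the mitochondrial import subunit tim-17 (TrB0123W), part of the channel that takes proteins across the inner membrane, had 448, 374 and 407 normalized counts in Δrgs4 LL, against 719.9, 642 and 624 in wild-type LL. In DD the values were 369, 375 and 422 in Δrgs4, against 385, 365 and 311 in the wild-type. Its interaction was -0.83 ± 0.15 (limma adjusted p = 0.0378, 2 of 12 omissions), since light raised the gene in the wild-type (0.90) and the value in Δrgs4 was 0.07. The LSm3 and LSm6 genes (TrA2076W, TrA1443W), whose products bind U6 snRNA, had interactions of -0.85 and -0.76 that did not pass (limma adjusted p = 0.105 and 0.134).

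Of 2 listed iron uptake genes outside the siderophore cluster, 1 was called with a negative interaction, against 0.506% of all genes. The interactions were -2.27 for TrD0323C and 0.83 for TrD0040C. The iron transporter gene TrD0323C had 1409, 1154 and 1670.4 normalized counts in Δrgs4 LL, against 7239, 2786 and 5723 in wild-type LL. DD levels were 3326, 3295 and 2740.1 in Δrgs4, against 2354, 2327 and 2077 in the wild-type. The mutant was below all wild-type libraries in LL and above all of them in DD, although the wild-type LL libraries ranged widely. The interaction was -2.27 ± 0.39 (SE, limma adjusted p = 0.0378), with -1.80 in LL (limma adjusted p = 0.00598) and 0.47 in DD (limma adjusted p = 0.545). It was still called in 2 of 12 omissions, with values between -2.67 and -1.98. Light lowered this gene in Δrgs4 (-1.15, limma adjusted p = 0.00391) and raised it in the wild-type (1.11, limma adjusted p = 0.00467).

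TrD0323C is numbered next but one to the cytochrome P450 gene TrD0325W, and these were the only called genes within 5 numbers of each other. The gene between them, TrD0324W, looked up after their values were seen, had 271, 254 and 249 normalized counts in Δrgs4 LL, against 497, 330.1 and 408 in wild-type LL, and 213, 258 and 281 in Δrgs4 DD, against 269, 209 and 242 in wild-type DD. Its interaction of -0.71 had a limma adjusted p of 0.136. Neighbours are read from the numbers of the identifiers, since no annotation with their coordinates was used here.

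The siderophore cluster TrE0011C to TrE0016W, whose products make and transport the iron chelator fusarinine C, had the lowest median interaction of any list. Of its 6 genes only 1 was called with a negative interaction, against 0.506% of all genes. Before adjustment all 6 had a limma p under 0.05, against 1561 of the 8895 tested genes. Over the 6 genes together there were 214, 214 and 587 reads in Δrgs4 LL, against 2613, 1686 and 895 in wild-type LL. In DD there were 44, 45 and 32 reads in Δrgs4, against 50, 39 and 51 in the wild-type. The cluster thus had few reads in darkness in both strains, and in light the summed reads of Δrgs4 lay below those of all wild-type libraries. The median interaction was -2.81, with -2.58 in LL and 0.18 in DD, and the median light response was 2.75 in Δrgs4 and 4.99 in the wild-type. These values are on the log2(normalized counts + 2) scale and depend on the added 2 where DD counts are this low.

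The called gene of the cluster was that of the acetyltransferase SidF (TrE0014C), which in Aspergillus fumigatus acts in the synthesis of fusarinine C. It had 77, 58 and 173 reads in Δrgs4 LL, against 599, 422 and 256 in wild-type LL, and 2, 2 and 1 in Δrgs4 DD, against 0, 0 and 0 in wild-type DD. In DD both strains lie at or under 3 reads, so that no fold is given there, and the fitted interaction of -3.0 ± 0.59 (limma adjusted p = 0.0442, 2 of 12 omissions) is no bound. With 0.5 added instead of 2 it was -4.24, and with 5 added -2.51, where it was no longer called (limma adjusted p = 0.0584). In LL its difference of -2.12 was called (limma adjusted p = 0.0155).

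In the other cluster genes the interaction did not pass. The difference in LL, however, was called lower in Δrgs4 in all 6 cluster genes, against 1.69% of all genes. These LL differences ran from -2.93 to -2.08, with limma adjusted p from 0.00786 to 0.0335. The ABC transporter gene TrE0013C had the lowest interaction of all tested genes, -3.50 ± 0.84 (limma adjusted p = 0.0805), from 22.6, 36.5 and 87.1 normalized counts in Δrgs4 LL, against 711, 306 and 167 in wild-type LL, and 6.72, 7.03 and 1.84 in Δrgs4 DD, against 0.946, 3.21 and 4.02 in wild-type DD. The siderophore transporter TrE0016W had -3.21 (limma adjusted p = 0.125) and the siderophore synthase gene TrE0011C, which encodes a nonribosomal peptide synthetase, -1.71 (limma adjusted p = 0.26). TrE0015W was listed at 0 reads in all 6 DD libraries. The ferrooxidoreductase gene TrD0040C, for the surface enzyme that prepares iron for uptake in fungi, had 271, 259 and 189 normalized counts in Δrgs4 LL, against 88, 137 and 184 in wild-type LL, and its interaction of 0.83 did not pass (limma adjusted p = 0.225).

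**Figure D4:**
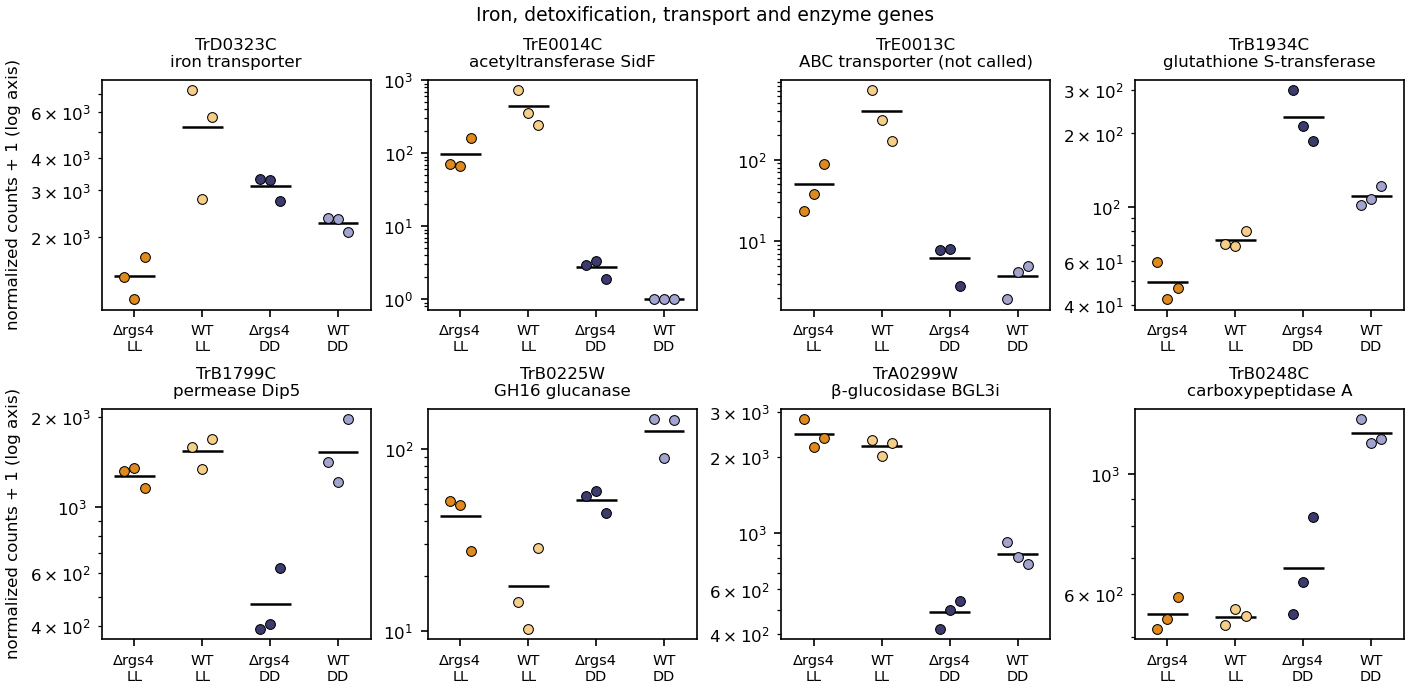
Normalized counts + 1 on log axes for 8 genes, with 1 point per library and a line at the mean of the 3 libraries, for Δrgs4 and wild-type (WT) in LL and in DD. The iron transporter and glutathione S-transferase genes have Δrgs4 below wild-type in LL and above it in DD, while in the lower row the permease, the β-glucosidase and the carboxypeptidase genes have Δrgs4 libraries below all wild-type libraries in DD and overlapping with them in LL.

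A glutathione S-transferase gene changed sides in the same way. These enzymes join glutathione to reactive or foreign compounds. TrB1934C had 58.8, 41 and 45.8 normalized counts in Δrgs4 LL, against 69.7, 68.6 and 78.7 in wild-type LL. In DD the counts were 299.7, 214 and 185 in Δrgs4, against 101, 107 and 121 in the wild-type, so that the mutant was lower than all wild-type libraries in LL and higher in DD. Its interaction was -1.62 ± 0.27 (limma adjusted p = 0.0327, 2 of 12 omissions), and neither the LL difference of -0.57 nor the DD difference of 1.05 passed on its own. The other glutathione S-transferase genes of the list, TrF1200C and TrE0246W, had interactions of -0.89 and -0.71 (limma adjusted p = 0.187 and 0.0897). The authors picked out the 3 genes as up-regulated in Δrgs4 in DD in these libraries, so that their shared negative sign follows in part from this choice. In TrE0246W the DD values of 1082, 883 and 727 in Δrgs4, against 514, 579 and 570.5 in the wild-type, carried the difference, and 487, 557 and 561 in Δrgs4 LL overlapped with 508, 542 and 598 in wild-type LL.

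Of 3 listed genes of mitochondrial energy metabolism, 2 were called with a negative interaction, against 0.506% of all genes, and the median of the 3 was -0.91. The third, for an ATP synthase epsilon chain protein (TrE0815C), had -0.46 and did not pass (limma adjusted p = 0.492). The list was drawn from genes that the authors had found regulated in these libraries, so that its direction is not independent evidence. The gene of the succinate-CoA ligase alpha subunit (TrD1325C), an enzyme of the citric acid cycle, had 47.9, 45.6 and 54.1 normalized counts in Δrgs4 LL, against 86.8, 93.9 and 87.2 in wild-type LL. For DD the libraries gave 120.1, 103 and 113 in Δrgs4, against 108, 115 and 89.5 in the wild-type, and the strains overlapped. The interaction was -0.95 ± 0.19 (limma adjusted p = 0.0445, 1 of 12 omissions). The gene of a 3-hydroxyisobutyrate dehydrogenase (TrA1757W, MmsB), an enzyme of valine degradation, had -0.91 ± 0.18 and was called in 1 of 12 omissions. Both genes were lower in light than in darkness in Δrgs4 (-1.16 and -0.90), and their light responses in the wild-type were -0.21 and 0.01 and did not pass.

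The mannitol-1-phosphate dehydrogenase gene (TrG0013W), for an enzyme of the polyol mannitol, was lowered by light in both strains but more in the mutant. Of 8 listed dehydrogenases and reductases, with a median interaction of -0.37, TrG0013W was the 1 called, against 0.506% of all genes called negative. It had 196, 204 and 219 normalized counts in Δrgs4 LL, against 361, 355 and 299.6 in wild-type LL, and 735, 682 and 652 in Δrgs4 DD, against 649, 640.0 and 624 in wild-type DD. Its light response was -1.73 in Δrgs4 and -0.91 in the wild-type, an interaction of -0.82 ± 0.12 (limma adjusted p = 0.0251, 3 of 12 omissions). The same pattern held for the Zn2Cys6 transcriptional regulator gene TrB1006C, of a fungal class of DNA-binding regulators, with -1.38 in Δrgs4 and -0.70 in the wild-type and an interaction of -0.68 ± 0.13 (1 of 12 omissions). In TrB1006C the mutant was below all wild-type libraries in both light conditions, with 208, 185 and 209 in Δrgs4 LL, against 376, 388 and 338 in wild-type LL, and 491, 545 and 544 in Δrgs4 DD, against 659, 550.1 and 586 in wild-type DD.

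Of the 6 listed genes that are mutated in the strains RutC30 or QM9123, 2 were called with a negative interaction, against 0.506% of all genes. The authors named the 6 among genes they had found regulated in these libraries, so that this count is not independent evidence. TrC0611W, an ortholog of Arc15 of Neurospora crassa, a subunit of the complex that nucleates branched actin filaments, had 437, 455 and 512 normalized counts in Δrgs4 LL, against 719, 881 and 813 in wild-type LL. The DD libraries had 1016, 964 and 1059 in Δrgs4, against 975, 889 and 908 in the wild-type. Its interaction of -0.91 ± 0.12 (limma adjusted p = 0.016) was called in 11 of 12 omissions, more than for most genes. TrD0796W, annotated as an unknown protein, had -1.02 ± 0.17 (limma adjusted p = 0.0378, 3 of 12). The median of the 6 genes was -0.26, and 3 of them had positive values.

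Further annotated genes with a negative interaction were the lipase or esterase gene TrG0808C (-0.94 ± 0.14, 6 of 12 omissions) and the exonuclease family gene TrA1514W (-0.79 ± 0.14, 2 of 12). Of genes annotated as unknown proteins, TrF0409C had 392, 277 and 330.1 normalized counts in Δrgs4 LL, against 1197, 1110.4 and 671 in wild-type LL, and 144, 163 and 239 in Δrgs4 DD, against 173, 167 and 157 in wild-type DD, so that light raised it in both strains but less in the mutant (-1.64 ± 0.33, 2 of 12). TrA0316W (-1.24), TrC0674C (-1.33) and TrA0634C (-1.04) were called in 1 of 12 omissions each, and TrD1070W (-0.87) in 7. In all of these genes the mutant libraries were below all wild-type libraries in LL. TrF0358W, without an annotation, had 239.7, 237 and 226 in Δrgs4 LL, against 346, 375 and 344 in wild-type LL, and 531, 468 and 320.3 in Δrgs4 DD, against 256, 329 and 298 in wild-type DD (-1.15 ± 0.23, 1 of 12).

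Genes with a positive interaction formed a smaller set, in which 0 of 18 were called in more than 6 of 12 omissions. TrB1101C, which has no annotation and was picked out after its values were seen, reached 6 omissions, with 1205, 1207 and 1211 normalized counts in Δrgs4 LL, against 834, 853 and 896 in wild-type LL, and 1303, 1178 and 1375 in Δrgs4 DD, against 1578, 1382 and 1467 in wild-type DD. Its interaction was 0.69 ± 0.10 (limma adjusted p = 0.0205), and the strains did not overlap in either light condition, with the mutant higher in LL and lower in DD. The next was TrA1538W (0.95 ± 0.15) with 4 of 12 omissions.

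Some positive values came from lower levels of the mutant in darkness. The gene of the amino acid permease Dip5 (TrB1799C), a plasma membrane importer, had 390.0, 403 and 625 normalized counts in Δrgs4 DD, against 1410.0, 1206 and 1964 in wild-type DD. In LL it had 1320.3, 1344 and 1152 in Δrgs4, against 1586, 1339 and 1681 in the wild-type, and the strains overlapped. Its interaction was 1.42 ± 0.28 (limma adjusted p = 0.0445, 1 of 12 omissions), with a called difference of -1.69 in DD. Light raised the gene in Δrgs4 (1.46) and the response of the wild-type was 0.03. It was the single called gene of 7 for amino acid and peptide transport, against 0.202% of all genes called with a positive interaction. The median interaction of the 7 was 1.27 with values from -0.55 to 1.42, and 3 of them were negative.

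The β-glucosidase gene bgl3i (TrA0299W), for an enzyme of glycoside hydrolase family GH3 that cleaves cellobiose or related sugars, had 419.8, 498 and 540.3 normalized counts in Δrgs4 DD, against 919.8, 807 and 756 in wild-type DD. In LL it had 2815, 2199 and 2382 in Δrgs4, against 2331, 2011 and 2274 in the wild-type, with overlap. Light raised bgl3i in both strains, with responses of 2.34 in Δrgs4 and 1.41 in the wild-type, an interaction of 0.92 ± 0.17 (limma adjusted p = 0.0378, 1 of 12 omissions). The carboxypeptidase A gene (TrB0248C), for an enzyme that removes amino acids from the end of proteins, had 549.5, 630.0 and 830.2 in Δrgs4 DD, against 1261, 1139.9 and 1161 in wild-type DD, and 517, 539 and 592 in Δrgs4 LL, against 526, 561 and 546 in wild-type LL. Its interaction was 0.86 ± 0.18 (1 of 12), and light lowered it in the wild-type (-1.12) while the value in Δrgs4 was -0.27 (limma adjusted p = 0.0882).

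The GH16 gene TrB0225W, annotated as a glucan endo-1,3(4)-β-glucosidase, had the highest interaction of the called genes at low levels. It had 50.6, 47.9 and 26.6 normalized counts in Δrgs4 LL, against 13.4, 9.31 and 27.5 in wild-type LL, with overlap. DD levels were 53.8, 57.4 and 43.3 in Δrgs4, against 144, 87.8 and 142 in the wild-type, without overlap. The interaction was 2.51 ± 0.51 (limma adjusted p = 0.0452, 2 of 12 omissions). Of the 9 listed genes for carbohydrate-active enzymes it and bgl3i were called, against 0.202% of all genes called with a positive interaction. The median of the 9 was 0.58, and 4 of them had negative values, down to -0.79. This list too was drawn from genes that the authors had found regulated in these libraries.

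Other positive values, those of TrG0897W, TrG0359C and TrC0596C among them, came mainly from higher levels of the mutant in light. The tyrosinase gene TrG0897W, for an enzyme that oxidizes phenols, had 22633, 29021 and 25528 normalized counts in Δrgs4 LL, against 17007, 18154 and 15549.9 in wild-type LL, and 65299, 69797 and 79250.4 in Δrgs4 DD, against 84554, 79280.4 and 82235 in wild-type DD. Light lowered it in both strains, with responses of -1.48 in Δrgs4 and -2.28 in the wild-type (interaction 0.80 ± 0.16, 2 of 12 omissions). The gene of a secreted protein with a CFEM domain, a cysteine-rich fungal module (TrG0359C), had 63.3, 74.1 and 68.8 in Δrgs4 LL, against 37.9, 34.7 and 37.9 in wild-type LL, while DD levels of 1567, 1457 and 1359 in Δrgs4, against 1599, 1562 and 1258 in the wild-type, overlapped (0.87 ± 0.16, 3 of 12). The unknown protein TrC0596C was raised by light in Δrgs4 (1.0), where the wild-type value was 0.12 (0.88 ± 0.16, 1 of 12). Of the further genes with the highest interactions, TrB1962C (1.47), annotated as unknown, TrA0339W (1.33), unknown as well, TrA1397W (1.12) and the unannotated TrG0191C (1.2) and TrA0458C (0.97) were called in 1 or 2 of 12 omissions each. TrG0191C had under 50 normalized counts in all LL libraries. In TrA1397W and TrB1962C the larger difference was in DD, with -0.87 and -1.14, against 0.25 and 0.33 in LL.

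Most called genes had mean differences of opposite sign in light and darkness, but only 4 of the 63 were called in DD. In many of them the DD difference was small, so that its sign is uncertain. Of the 63 called genes, 58 (92.1%) had opposite signs of the mean differences in LL and DD, against 43.7% of all tested genes. A large interaction calls for differences that are far apart, so that the share among called genes follows in part from the call. A stricter view asked that the 3 Δrgs4 libraries lay above all 3 wild-type libraries in one light condition and below all of them in the other. By this rule 183 genes changed sign (2.06%), 104 of them lower in LL and higher in DD (1.17%) and 79 higher in LL and lower in DD (0.888%). Genes separated in the same direction in both light conditions were more frequent, at 330, of which 193 were higher and 137 lower in Δrgs4. Of the 183 genes, 30 were among the 63 called. With 1 library fewer in a group the rule is easier to meet, and it held for 212 to 434 genes over the omissions, with the highest number without Δrgs4 DD replicate 3.

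Sign changes of this kind were small in most genes. Of the 183 genes, 10 had a difference beyond 0.58 in both light conditions, and limma called 0 genes in LL and in DD with opposite signs. At an unadjusted p under 0.05 in both light conditions, 111 genes had opposite and 243 the same signs. Across the 8895 genes the differences in LL and in DD, which come from separate libraries, had a Pearson r of 0.185 and a Spearman rho of 0.143, given as a description, since genes are not independent.

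The 10 genes with the largest smaller difference of the pair, a ranking that uses these values themselves, were mostly low in reads. The cytochrome P450 gene TrD0325W was among them and was the only one of the 10 called in all omissions. TrA0339W, annotated as unknown, had 772, 778 and 805 normalized counts in Δrgs4 LL, against 456, 471 and 515 in wild-type LL, and 171, 245 and 279.8 in Δrgs4 DD, against 396, 387 and 283 in wild-type DD, with differences of 0.71 in LL and -0.62 in DD. TrG0190C had 8.14, 9.12 and 6.42 in Δrgs4 LL, against 13.4, 12.7 and 12.3 in wild-type LL, and 35.5, 29.3 and 28.5 in Δrgs4 DD, against 11.4, 20.3 and 17.1 in wild-type DD, and its interaction of -1.48 did not pass (limma adjusted p = 0.0734). Nor did those of TrF0474W (-1.85), TrE1270C (-2.04), TrG0215C (1.64), TrD0064W (-1.49) and TrC1258C (1.28), all with group means below 50 normalized counts.

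TrE0008W, a gene without annotation, and the SidF gene completed the 10. SidF met the rule in DD only through 2, 2 and 1 reads in Δrgs4, against 0, 0 and 0 in the wild-type, too few for a fold. TrE0008W had 0, 0 and 0 reads in Δrgs4 LL, against 1, 3 and 7 in wild-type LL. In DD the counts were 19, 13 and 18 reads in Δrgs4, against 5, 6 and 5 in the wild-type. In LL the reads are too few for a fold, and the fitted interaction of -2.67 ± 0.52 (limma adjusted p = 0.0442, 1 of 12 omissions) was -4.29 with 0.5 added and -1.77 with 5 added. It is numbered close to the siderophore cluster, and TrE0009C and TrE0010C, which lie between by number, had interactions of -0.21 and -0.16 that did not pass (limma adjusted p = 0.846 and 0.769).

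Seen from the side of the light response, 34 of the 63 called genes had a light response that was called in a single strain. Among all tested genes, light raised 14.2% and lowered 22% in Δrgs4, and raised 15.3% and lowered 21.6% in the wild-type. Of the 45 genes with a negative interaction, 15 were lowered by light in Δrgs4 with no call in the wild-type, 10 were raised in the wild-type with no call in Δrgs4, 4 were raised and 4 lowered in both strains, and 10 were called in neither. The remaining 2 were lowered in Δrgs4 and raised in the wild-type, and they were the only such genes among all 8895, with none of the opposite kind. They were the iron transporter gene TrD0323C and TrC0674C, an unknown protein with 48.8, 60.4 and 72.4 normalized counts in Δrgs4 LL, against 110.0, 118 and 117 in wild-type LL, and 90.3, 79.6 and 109.5 in Δrgs4 DD, against 62.5, 62.1 and 85.5 in wild-type DD. The light response of TrC0674C was -0.61 in Δrgs4 (limma adjusted p = 0.0147) and 0.72 in the wild-type (limma adjusted p = 0.00602).

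Of the 18 genes with a positive interaction, 7 were lowered by light in both strains, 6 were lowered in the wild-type with no call in Δrgs4, 3 were raised in Δrgs4 with no call in the wild-type, 1 was raised in both and 1 was called in neither. The signs of the mean light responses were opposite in 28 of the 45 genes and in 4 of the 18, against 16.1% of all tested genes. As the interaction is the difference of the 2 light responses, these shares describe the called genes and are no test.

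**Figure D5:**
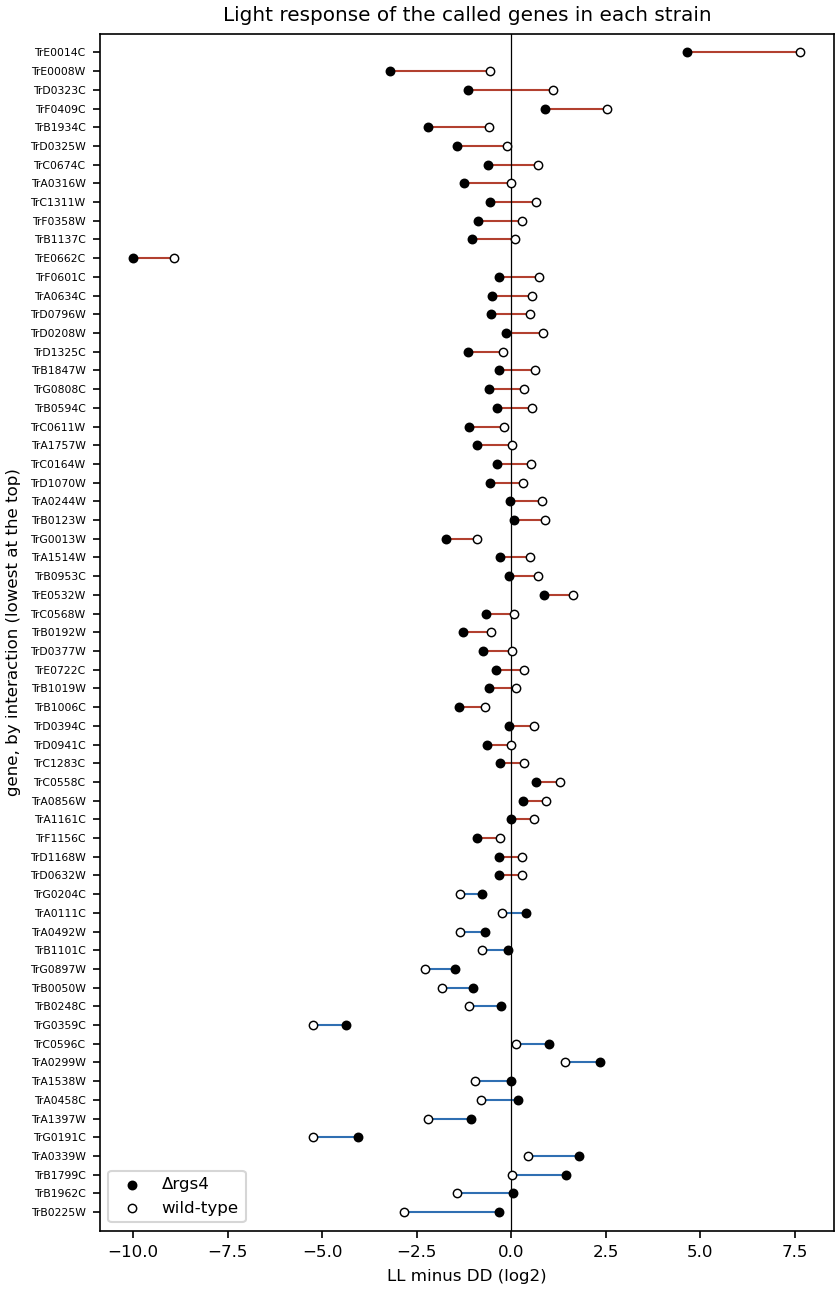
Light response (LL minus DD, log2) of the 63 called genes in Δrgs4 (filled points) and in the wild-type (open points), sorted by the interaction with the lowest value at the top, and with red lines for negative and blue lines for positive interactions. The ribosomal protein genes have open points right of 0 and filled points left of it.

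TrE0662C stood apart by the size of its light response. It lies by number next to the sorbicillin cluster regulator gene ypr2 (TrE0663W) and had 55.2, 60.4 and 74.3 normalized counts in Δrgs4 LL, against 103, 77 and 93.9 in wild-type LL. For DD the libraries gave 77172, 66538 and 56296 in Δrgs4, against 48026, 42663 and 44003 in the wild-type. The strains did not overlap in either light condition, and the interaction was -1.07 ± 0.20 (limma adjusted p = 0.0378, 1 of 12 omissions) beside a light response of -9.99 in Δrgs4 and -8.92 in the wild-type. The ypr2 gene had an interaction of -0.77 that missed the threshold (limma adjusted p = 0.0521).

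Several groups of regulated genes had no called member. None of 9 ABC and MFS transporters, 6 secreted small cysteine-rich proteins, 4 helicases and ATPases, 2 LSm proteins and 2 Ras-type GTPases was called by limma. Over all genes 0.708% were called, so that lists this short would mostly hold no called gene. At an unadjusted p under 0.05 there were 6, 4, 3, 2 and 1, against 1561 of the 8895 tested genes. The transporter list includes the siderophore cluster gene TrE0013C. Their median interactions were 0.30, 0.78, 0.70, -0.80 and -0.68. Among 8 genes for transcription factors and chromatin, TrB1006C was the one called, against 0.506% of all genes called negative, and the median was -0.73. The members of all these lists were annotated by the authors from the genes they had found regulated in LL or DD in these libraries, so that these counts are not independent evidence. The same holds for the lists in the paragraphs above.

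The remaining called genes had no annotation in the sources used here. Of the 63 genes, 24 had a named function, 9 were listed as unknown proteins and 30 were without a description. The authors' annotation used here covered only 209 of the 10879 genes. Over the 12 omissions 11 of the 63 genes were called at least 6 times and 25 at most once, of which TrA0856W (-0.62) was not called in any.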

How the data were processed

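RNA of the 12 cultures was depleted of ribosomal RNA and sequenced, and the authors aligned the reads with HISAT2 2.2.1 to the QM6a genome and counted them per gene with featureCounts. The authors deposited values on a log2-like scale for 10879 genes, made with DESeq2's variance stabilizing transformation. A deposited table of raw counts has 12 columns whose names match no sample label, and it was not used. The transformation was inverted here, which gave whole reads within 0.01 for 100% of the values, with 11.25 to 15.84 M (mega) reads on genes per library. Intervals were not computed from reads, and PCR copies cannot be told apart.

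limma 3.58.1 in R 4.3.3, with a variance trend, was fitted on log2(normalized counts + 2) with 4 group means over genes that reached 10 reads in 3 or more libraries. This scale understates the change of weakly transcribed genes. As the trend borrows from genes with a like mean across all groups, it may give too small a spread to genes with few reads in 1 light condition. Strand setting and handling of multiply aligned reads in the authors' counting were not given in the sources used here. Values of overlapping genes and of near-identical copies are therefore uncertain.

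The members, gene lists and tests were chosen with earlier results of these data known. Named are the 12 called genes with the lowest and the 12 with the highest interaction, the 10 separated sign changes with the largest smaller difference, all called genes annotated by the authors, examples from the lists, and rgs4. TrC0164W, TrB1101C, TrA0856W, TrD0324W, TrE0009C and TrE0010C fall outside this rule and were chosen after their values were seen. Functions were taken from the authors' annotation. Alternatives were TMM and upper-quartile factors, the values as deposited, pseudocounts of 0.5 and 5, other read filters, limma-voom, library weights, robust estimation, no variance trend, a replicate block, adjusted p alone and the omission of each library. The fit was tested on simulated data. Python 3.11.15, pandas 2.3.3 and matplotlib 3.10.9 were used for tables and plots.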

Additional observations from a re-analysis of the deposited data

Results flagged for a closer look

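The genes below are those named in the report for which the effect of the rgs4 deletion differed between LL and DD by the interaction test (limma, adjusted p under 0.05 and beyond 0.58). Values are interactions on the log2 scale, with the number of the 12 omissions in which the gene was still called. No group had more than 3 libraries, so that single libraries far from their group were not looked for by a test.

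Among genes called in at least 6 omissions, the values were -1.33 for TrD0325W (cytochrome P450), -1.22 for TrC1311W (S28), -1.13 for TrB1137C, -0.94 for TrB1847W (P1), -0.93 for TrB0594C (S21) and -0.91 for TrC0164W, each in 12 omissions. They were -0.91 for TrC0611W (Arc15 ortholog) and -0.76 for TrB0953C (S10) in 11, -0.87 for TrD1070W in 7, and -0.94 for TrG0808C (lipase or esterase) and 0.69 for TrB1101C in 6.

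Among genes called in fewer omissions, the negative values were -3.0 for TrE0014C (SidF), -2.67 for TrE0008W, -2.27 for TrD0323C (iron transporter), -1.64 for TrF0409C, -1.62 for TrB1934C (glutathione S-transferase), -1.33 for TrC0674C, -1.24 for TrA0316W, -1.15 for TrF0358W and -1.07 for TrE0662C, each in 1 or 2 omissions. They were -1.04 for TrA0634C in 1, -1.02 for TrD0796W in 3, -0.98 for TrD0208W (rla2) in 5, -0.95 for TrD1325C (succinate-CoA ligase) in 1, -0.91 for TrA1757W (MmsB) in 1, -0.83 for TrB0123W (tim-17) in 2 and -0.82 for TrG0013W (mannitol-1-phosphate dehydrogenase) in 3. The smallest were -0.79 for TrA1514W (exonuclease), -0.68 for TrB1006C (Zn2Cys6 regulator) and -0.63 for TrC1283C (L11), in 2, 1 and 1 omissions, and -0.62 for TrA0856W, in none.

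The other positive values were 2.51 for TrB0225W (GH16), 1.47 for TrB1962C, 1.42 for TrB1799C (Dip5), 1.33 for TrA0339W, 1.2 for TrG0191C, 1.12 for TrA1397W, 0.97 for TrA0458C, 0.92 for TrA0299W (BGL3i), 0.88 for TrC0596C, 0.86 for TrB0248C (carboxypeptidase A) and 0.80 for TrG0897W (tyrosinase), each in 1 or 2 omissions. They were 0.87 for TrG0359C (CFEM protein) in 3 and 0.95 for TrA1538W in 4.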

How the results depend on the processing

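Depth limits the few genes under 50 normalized counts in all libraries of 1 light condition (3 of the 63). Of the 45 negative and 18 positive calls, upper-quartile factors left 23 and 3, no filter beyond 1 read 28 and 9, and limma-voom 30 and 10. No variance trend gave 30 and 7, the deposited scale 22 and 21, and library weights 209 and 140. These calls included 31, 33 and 59 of the 63 genes, the others being new calls. At adjusted p alone there were 36 positive calls. TMM factors, pseudocounts of 0.5 and 5, at least 10 reads in every library and robust estimation kept 60 to 62 of the 63 genes. The cause of these differences was not tested. Of the genes with an interaction given in the text, only TrE0009C (-0.21, not called) changed direction under any alternative run, with a range of -0.493 to 0.054 over the omissions and the highest without Δrgs4 LL replicate 3.

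With a replicate block 4 negative and 0 positive calls remained, all 4 of them among the 63 genes (TrC1311W, TrB1847W, TrC0164W and TrB0594C), 75% of them with opposite signs. The labels do not say whether same-numbered cultures were grown together. Correlations of same-numbered deviations ran from -0.41 to 0.35, with 6 of 18 above 0.1. With 3 libraries per group they cannot settle whether the numbers pair the cultures.

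Omitting 1 library gave 7 to 104 negative and 0 to 89 positive calls and 85.7% to 94.7% opposite signs among called genes. Separated sign changes numbered 212 to 434, with 434 without Δrgs4 DD replicate 3, 291 without Δrgs4 LL replicate 1, and 320 and 280 without wild-type DD replicates 2 and 1. Under other factors, scales and filters they numbered 154 to 188.

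Median interactions over the omissions ran from -3.23 to -2.35 for the siderophore cluster, -0.97 to -0.86 for ribosomal proteins, -1.11 to -0.73 for glutathione S-transferases, -0.35 to -0.13 for genes mutated in RutC30 or QM9123, 0.32 to 0.70 for carbohydrate-active enzymes and 0.62 to 1.49 for amino acid and peptide transport. On the deposited scale they were -1.06 for the cluster, -0.56 for glutathione S-transferases, 0.14 for the enzymes and 0.17 for transport. With at least 10 reads in every library, 1 cluster gene remained, with -1.705, and 6 of the 7 transport genes, with a median of 0.60. These values thus cover fewer genes than the others. With library weights the medians were 0.19 for the enzymes and 0.87 for transport.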
